A study of Mus musculus with 2 samples.

Results

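The genes described here encode receptors and adaptors through which innate immune cells recognise mycobacterial material, the active ingredient of complete Freund's adjuvant (CFA). They were chosen by symbol and not by a rule on their values, though earlier results of these data were known. The list was Clec4e, Clec4d, Tlr2, Tlr4, Tlr13, Cd14, Nod2, Myd88, Card9 and Clec7a. Of these 10 genes, 9 were measured among the 32285 genes of the count matrices, and Clec7a was not analysed here. Each gene was followed across cell types of the temporomandibular joint (TMJ), the joint between jaw and skull, in a WT library and a Prox1 mutant library.

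CFA is an oil emulsion that carries killed mycobacteria. Their cord factor, trehalose dimycolate, is bound by Mincle (Clec4e) and by its partner MCL (Clec4d), which signal through the FcR gamma chain (Fcer1g), the kinase Syk and the adaptor Card9 with Bcl10 and Malt1. Lipoproteins are sensed by Tlr2, bacterial ribosomal RNA by Tlr13, and muramyl dipeptide of the cell wall by the cytosolic receptor Nod2. Tlr4 with the co-receptor Cd14 senses lipopolysaccharide, which comes from Gram-negative bacteria, and other ligands. Most of the Toll-like receptors signal through Myd88.

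The study dissociated TMJs of C57BL/6 mice after injection of CFA into the joint and profiled single cells by droplet 3' RNA sequencing. The WT CFA group was 1 library of wild-type mice aged 8 to 10 weeks, and the Prox1 mutant CFA group was 1 library of Prox1+/- mice of the same age and strain. Prox1 is a transcription factor of lymphatic endothelium, the mutation is carried by every cell of the animal, all mice in both groups were female and had received CFA, and no uninjected joint enters the comparison. The number of animals pooled in each library was not given in the sources used here. With 1 library per group there is no replicate check, so no test was made and no p-value is given, and every interval below covers counting error only.

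The WT library held 5709 cell barcodes, of which 4352 passed the filters with a median of 6997 UMIs, and the mutant library held 7846, of which 5757 passed with a median of 4848. Prox1 itself gave 11.6 CPM (UMIs per 1000000 UMIs, from 563 UMIs) over all kept WT cells and 5.80 CPM (315 UMIs) over all kept mutant cells, and 40.2 and 24.1 CPM in endothelial cells. The libraries shared 10 barcodes, 4 of them after filtering. Clusters were named from marker lists, and a class name below means cells that resemble the named type. Clusters whose leading genes were mixed or whose depth was low stayed unnamed, and these held 11.6% of the WT cells and 41.9% of the mutant cells, a gap that touches every comparison between the libraries. The myeloid classes were mature neutrophils (181 WT and 171 mutant cells), immature neutrophils (131 and 162), granulocyte-monocyte progenitors (63 and 50), monocytes (51 and 38), interferon-responding macrophages (89 and 104), inflammatory macrophages (206 and 141), macrophages led by Apoe, Arg1 and C1qb, here called C1q macrophages (101 and 86), and resident-type macrophages led by Mrc1 and Ccl8 (57 and 84). Levels are UMIs per 1000000 UMIs of the class (CPM), with an exact 95% Poisson interval in brackets. A level is thus a share of the UMIs of a class and not a count per cell.

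Clec4e and Clec4d are neighbours on mouse chromosome 6 (GRCm38). Clec4d lies at chr6:123262111-123275265 on the plus strand and Clec4e at chr6:123281789-123289870 on the minus strand, so that both genes run toward each other across a gap of 6523 bases. Tlr2 lies at chr3:83836272-83841767. The 250 bases before the RefSeq start of these genes are shown. Clec4d and Clec4e are both highest in mature neutrophils, while Tlr2 is nearly even over several WT classes. Capitals mark matches, on either strand, to the letters TTGCNNAA (C/EBP), TGANTCA (AP-1) and GAGGAA (PU.1), and to GGG and CC spaced by any 5 bases (NF-kB), where N is any base, and each sequence is written along the strand of its gene.
Clec4e, chr6:123289872-123290121, minus strand: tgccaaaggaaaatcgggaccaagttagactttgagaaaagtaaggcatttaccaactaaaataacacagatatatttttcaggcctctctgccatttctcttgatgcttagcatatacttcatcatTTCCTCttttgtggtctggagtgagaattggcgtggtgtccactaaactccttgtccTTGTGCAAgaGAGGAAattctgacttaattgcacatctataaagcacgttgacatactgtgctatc
Clec4d, chr6:123261857-123262106, plus strand: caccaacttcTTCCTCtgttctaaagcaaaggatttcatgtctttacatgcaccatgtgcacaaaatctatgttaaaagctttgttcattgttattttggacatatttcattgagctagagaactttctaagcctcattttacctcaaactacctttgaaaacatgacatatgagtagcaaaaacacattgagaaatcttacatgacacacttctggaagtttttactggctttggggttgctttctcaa
Tlr2, chr3:83841609-83841858, minus strand: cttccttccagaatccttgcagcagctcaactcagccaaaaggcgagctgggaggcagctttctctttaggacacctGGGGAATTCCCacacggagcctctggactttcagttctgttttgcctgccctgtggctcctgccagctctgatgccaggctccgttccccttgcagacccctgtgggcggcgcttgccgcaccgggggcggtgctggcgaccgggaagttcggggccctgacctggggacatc

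The Clec4e window held 1 C/EBP match, beginning 66 bases before the start, and 2 PU.1 matches, beginning 123 and 56 bases before it. The Clec4d window held 1 PU.1 match, 240 bases before the start, and the Tlr2 window held overlapping NF-kB matches that begin 173 and 172 bases before it. The RefSeq start of Tlr2 lies inside the gene span given above, so part of its window falls within that span. Of 32851 RefSeq windows of the same length, 9.56% held the C/EBP letters, 45.8% those of NF-kB, 6.75% those of AP-1 and 23.3% those of PU.1. RefSeq windows (GRCm38.p6) were found for 7 of the members, and a match of letters is a description of the sequence only.

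Mature neutrophils held the highest level of the cord factor receptors in both libraries. Clec4e, the inducible Mincle receptor, stood at 1759 CPM in WT mature neutrophils (1661 to 1861) and 1587 CPM in mutant ones (1511 to 1666). The next class was monocytes in the WT library, at 637 CPM (573 to 706), and inflammatory macrophages in the mutant library, at 1001 CPM (972 to 1030). The interval of WT monocytes overlapped that of WT inflammatory macrophages, at 586 CPM, so these neighbours in the order did not differ beyond counting error. C1q macrophages held 463 and 448 CPM (WT and mutant), immature neutrophils 315 and 300 CPM, progenitors 190 and 206 CPM, and resident-type macrophages only 75.1 and 109 CPM.

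Clec4d, which encodes MCL, was likewise highest in mature neutrophils. Its level in mature neutrophils was 2348 CPM (2235 to 2465) in the WT library and 2422 CPM (2328 to 2520) in the mutant library. Inflammatory macrophages came next at 897 and 862 CPM, C1q macrophages held 747 and 728 CPM, interferon-responding macrophages 561 and 821 CPM, and monocytes 330 and 298 CPM. Resident-type macrophages held 237 and 285 CPM, immature neutrophils 286 and 256 CPM and progenitors 112 and 180 CPM. In both libraries the inflammatory, C1q and interferon-responding macrophages stood above monocytes for Clec4d.

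**Figure D1:**
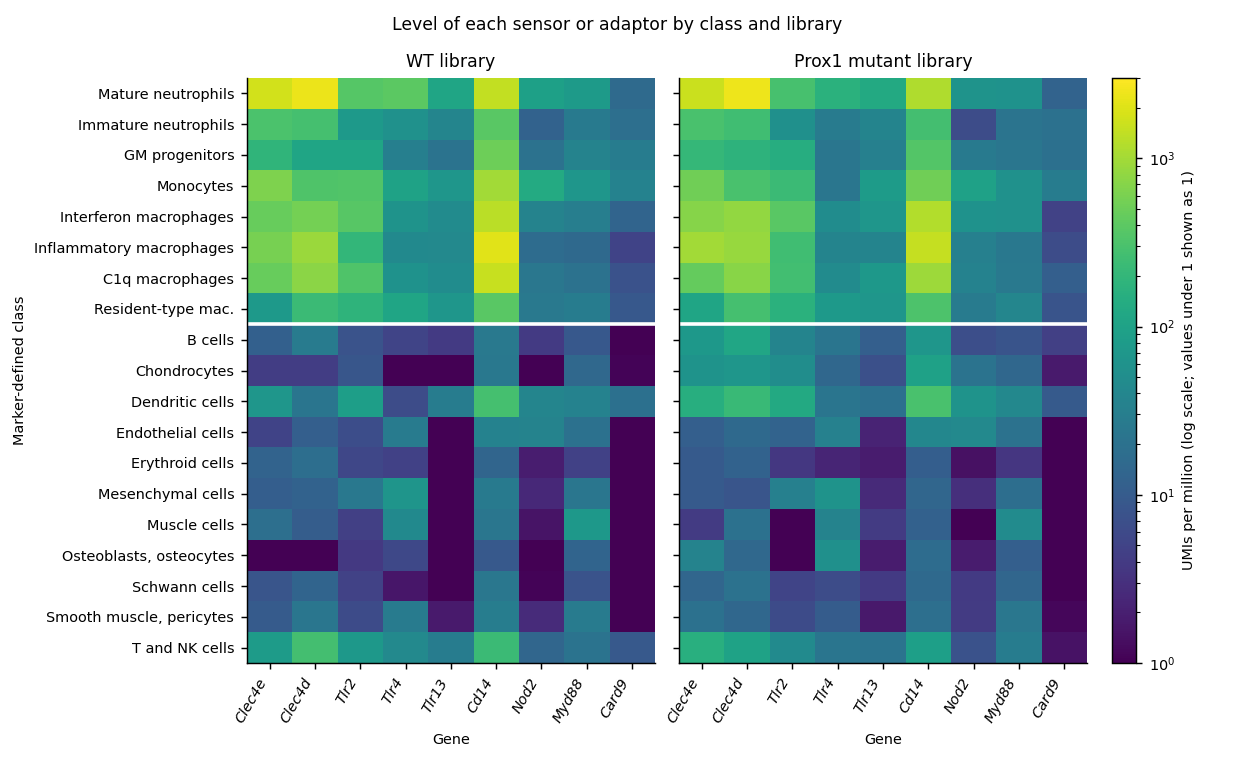
Level of each gene (columns) in the 19 classes with at least 20 cells in both libraries (rows), WT on the left and Prox1 mutant on the right, as CPM on a log colour scale, with the 8 myeloid classes above the white line. Clec4e and Clec4d are brightest in mature neutrophils of both libraries, at 1759 and 2348 CPM in WT and 1587 and 2422 CPM in the mutant.

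Of the Toll-like receptors and their co-receptor, Cd14 and Tlr2 were highest in macrophages, and Tlr4 and Tlr13 in mature neutrophils. Cd14, which hands lipopolysaccharide and lipoproteins to Toll-like receptors, reached 2069 CPM (2035 to 2104) in inflammatory macrophages of the WT library and 1465 CPM (1431 to 1501) in those of the mutant library. In the WT library C1q macrophages (1513 CPM) and mature neutrophils (1455 CPM) followed with overlapping intervals, and resident-type macrophages held 383 CPM. Tlr2 was nearly even over 4 WT classes: 375 CPM in interferon-responding macrophages, 368 CPM in mature neutrophils, 342 CPM in monocytes and 331 CPM in C1q macrophages, each overlapping the next. In the mutant library interferon-responding macrophages, at 392 CPM (363 to 424), stood above mature neutrophils, at 291 CPM (259 to 326), without overlap.

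As a share of UMIs, Tlr4 was highest in mature neutrophils. It had 278 UMIs over 181 WT and 173 over 171 mutant mature neutrophils. Resident-type macrophages had 73 over 57 WT and 124 over 84 mutant cells, and mesenchymal cells 516 over 538 and 360 over 339. The CPM values below are not levels per cell. WT mature neutrophils held 402 CPM (357 to 453), resident-type macrophages 110 CPM (86.0 to 138) and monocytes 100 CPM (75.8 to 130), and the first of these was 3.67-fold above the second. In the mutant library mature neutrophils were again highest, at 168 CPM (144 to 195), followed by resident-type macrophages at 75.3 CPM and mesenchymal cells at 61.6 CPM. Tlr13, which lies on chromosome X, reached 111 CPM (88.0 to 139) and 129 CPM (108 to 153) in mature neutrophils, and its next classes overlapped these values in both libraries.

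The cytosolic members had their highest values in monocytes or mature neutrophils, each overlapping the next class. Nod2 was highest in monocytes, at 133 CPM (105 to 167) in the WT library and 98.4 CPM (69.7 to 135) in the mutant library, and mature neutrophils followed at 95.5 and 61.3 CPM with overlapping intervals. Card9, the adaptor of the lectin pathway, was also highest in monocytes, at 35.1 CPM (21.4 to 54.2) and 28.5 CPM (14.2 to 51.0), from only 20 and 11 UMIs. Its interval overlapped that of the next class in both libraries. These were progenitors, at 28.7 CPM (WT), and immature neutrophils, at 19.95 CPM (mutant). Myd88 was highest in mature neutrophils, at 78.2 CPM (58.7 to 102) and 59.4 CPM (45.4 to 76.3), and overlapped the next class in both libraries. The class at the top was the same in both libraries for all 9 genes: mature neutrophils for 5, monocytes for 2, and inflammatory and interferon-responding macrophages for 1 each.

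**Figure D2:**
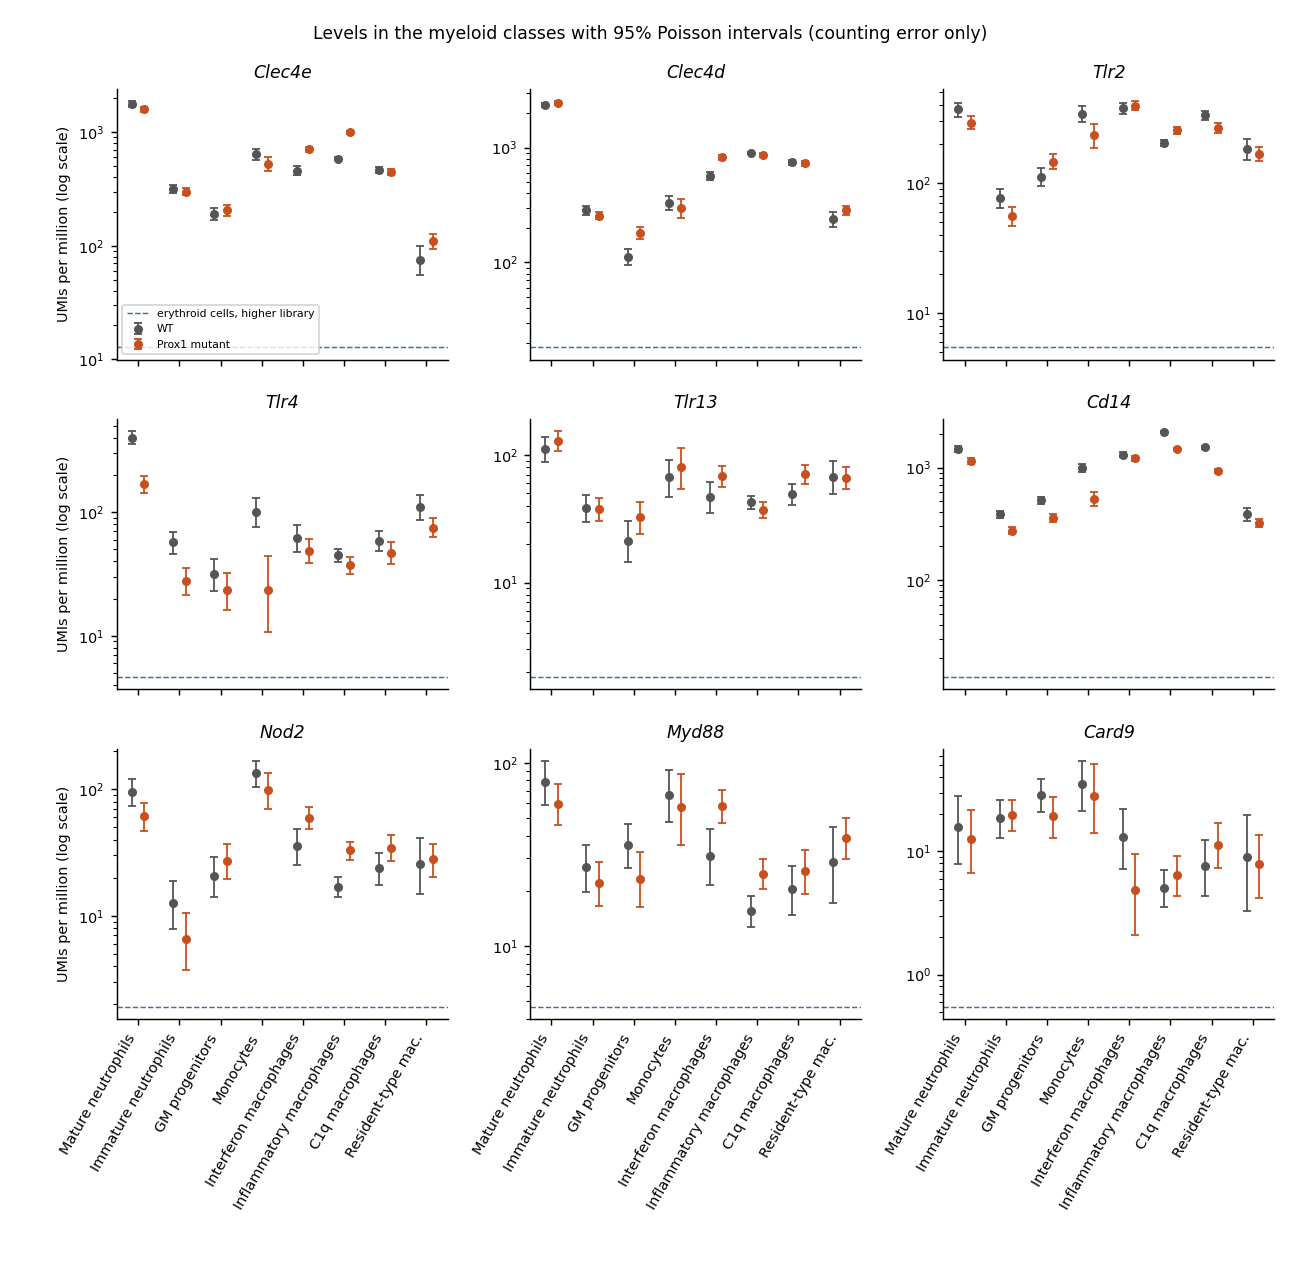
Level of each gene in the 8 myeloid classes as CPM on a log scale, with 95% Poisson intervals, WT in grey and Prox1 mutant in orange; the dashed line is the higher of the values in erythroid cells. Tlr4 in mature neutrophils stands at 402 CPM in the WT library and 168 CPM in the mutant library without overlap.

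Erythroid cells, which should lack the lectin receptors, gave the background: 12.8 and 9.57 CPM of Clec4e, 18.3 and 12.6 CPM of Clec4d and 13.6 and 10.9 CPM of Cd14. In the WT library B cells held 11.6 CPM and chondrocytes 4.30 CPM of Clec4e, while T and NK cells stood above the background, at 80.6 CPM (55.8 to 113) of Clec4e and 232 CPM of Cd14. In the mutant library B cells and chondrocytes held 70.7 and 60.7 CPM of Clec4e, and their median depth was 4013 (WT) and 4827 (mutant) UMIs for B cells and 32750 and 3197 UMIs for chondrocytes. The 9 mature neutrophil markers summed to 298 CPM in WT and 2419 CPM in mutant B cells, and the 6 erythroid markers to 104 and 3948 CPM, while in chondrocytes they summed to 4063 and 8264 CPM and to 39.7 and 25510 CPM. Their part in these values was not tested. T and NK cells (48 WT and 88 mutant) held 270 CPM (223 to 325) of Clec4d in the WT and 100 CPM (77.9 to 128) in the mutant library. The part of RNA from other cell types in the values of T and NK cells was not tested. Dendritic cells held 22.3 and 229 CPM of Clec4d, beside neutrophil markers of 574 and 4143 CPM.

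Some members stood above the background outside the myeloid cells. In mesenchymal cells Tlr4 held 64.9 CPM (WT, 59.5 to 70.8) and 61.6 CPM (mutant, 55.4 to 68.3), against 4.64 and 2.30 CPM in erythroid cells. Within the mesenchymal cells it was higher in the cluster led by Clec3b, Prg4 and Has1, at 79.4 CPM (72.2 to 87.2) in the WT and 71.6 CPM (63.8 to 80.0) in the mutant library, than in the cluster led by Tnn, Pdzrn4 and Fmod, at 31.6 and 32.7 CPM. Prg4 encodes lubricin, a lubricant of joint surfaces. Myd88 reached 70.6 and 47.9 CPM in muscle cells. Nod2 held 36.2 and 43.0 CPM in endothelial cells against 1.91 and 1.45 CPM in erythroid cells.

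Nod2 was not even among endothelial cells. In the cluster led by Nebl, Sema3g and Gja5, of which Sema3g and Gja5 are known from arterial endothelium, WT cells held 61.5 CPM (51.0 to 73.5) of Nod2 and mutant cells 85.9 CPM (71.1 to 103). The cluster led by Timp4, Gm12002 and Car4 held 28.3 and 30.6 CPM, and that led by Ubd, Selp and Plvap 26.5 and 23.8 CPM. The cluster led by Ctla2a held 21.1 and 21.5 CPM from 5 and 7 UMIs. In both libraries the first cluster lay above the other 3 without overlap of the intervals. Cd14 was uneven in another way, with 73.9 CPM (64.0 to 84.9) and 56.2 CPM (45.6 to 68.6) in the cluster led by Ubd and Selp, 14.6 and 27.2 CPM in that led by Timp4, 10.8 and 10.9 CPM in that led by Nebl, and 16.9 and 154 CPM in that led by Ctla2a.

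**Figure D3:**
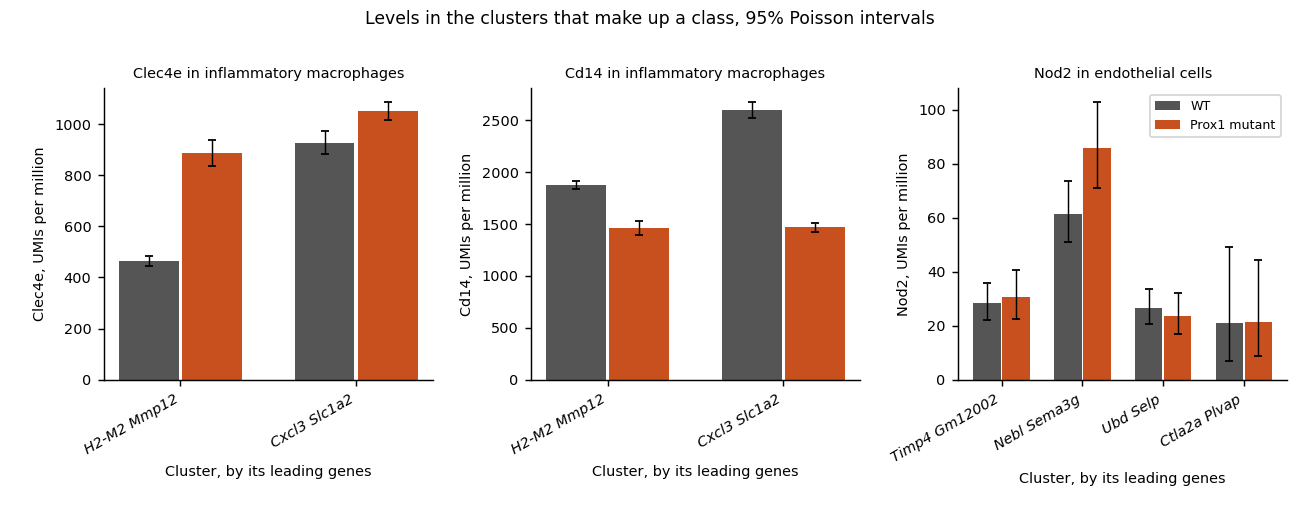
Level of Clec4e and Cd14 in the 2 clusters of inflammatory macrophages and of Nod2 in the 4 endothelial clusters, as CPM with 95% Poisson intervals, WT in grey and Prox1 mutant in orange, each cluster named by its 2 leading genes. Nod2 is highest in the cluster led by Nebl and Sema3g, at 61.5 and 85.9 CPM.

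In CPM, most members were far higher in mature than in immature neutrophils. The median depth was 2891 and 4706 UMIs (WT and mutant) in mature and 11572 and 12578 in immature neutrophils. From immature neutrophils, which express granule genes, to mature ones, 8 of 9 members were at least 2-fold higher in both libraries, where 21.6% of 7352 genes were so in the WT library and 18.5% of 8135 genes in the mutant library. Clec4d was 8.22-fold higher in WT and 9.46-fold higher in mutant mature neutrophils, Nod2 7.62-fold and 9.41-fold, Tlr4 7.06-fold and 6.08-fold, and Clec4e 5.58-fold and 5.29-fold. Card9 was the exception, with 15.9 and 12.7 CPM in mature against 18.8 and 19.95 CPM in immature neutrophils, intervals that overlapped in both libraries. The median log2 difference of the members was 2.27 and 2.39, against 0.01 and -0.04 over all genes. The clusters were formed from the same cells, with 4 of the members among the features used, so these ratios describe the classes and test nothing. In the immature class the 9 mature neutrophil markers summed to 215400 and 253500 CPM and the 6 immature ones to 109100 and 83080 CPM. Over 181 mature and 131 immature WT cells Clec4d had 1622 and 501 UMIs, Clec4e 1215 and 553, and Tlr13 77 and 67. The part of depth and of the marker genes in these folds was not tested.

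As a share of UMIs, mature neutrophils also exceeded inflammatory macrophages for most members. Median depth was 2891 and 4706 UMIs (WT and mutant) in mature neutrophils against 30332 and 27601 in inflammatory macrophages. These ratios of CPM are therefore not ratios per cell. Over 181 WT mature neutrophils and 206 WT inflammatory macrophages, Clec4e had 1215 and 3932 UMIs, Clec4d 1622 and 6021, and Tlr4 278 and 301. In the WT library 7 of 9 members were at least 2-fold higher in mature neutrophils (19.2% of all genes), and in the mutant library 4 of 9 were (16.0%). Clec4e was not in that count in the mutant library, where mature neutrophils were 1.59-fold above inflammatory macrophages against 3.00-fold in the WT library. Cd14 went the other way, 1.42-fold and 1.28-fold higher in inflammatory macrophages.

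Among macrophages, the CPM of the lectin receptors and Cd14 was higher, and that of Tlr4 lower, in inflammatory than in resident-type cells. Median depth was 30332 and 27601 UMIs (WT and mutant) in inflammatory and 11988 and 17306 in resident-type macrophages. These ratios are therefore not ratios per cell. In inflammatory macrophages 3 of 9 members were at least 2-fold above resident-type macrophages in both libraries, where 12.0% of genes were so in the WT library and 9.58% in the mutant library. Clec4e was 7.80-fold and 9.15-fold higher, Cd14 5.40-fold and 4.59-fold, and Clec4d 3.78-fold and 3.02-fold. Tlr4 was lower in inflammatory than in resident-type macrophages, by 2.44-fold and 2.03-fold, and Tlr13 by 1.58-fold and 1.78-fold. Over 206 inflammatory and 57 resident-type WT cells Tlr4 had 301 and 73 UMIs and Tlr13 287 and 45. Over 141 and 84 mutant cells Tlr4 had 172 and 124 UMIs and Tlr13 172 and 109. The median log2 difference of the members was -0.59 (WT) and 0.23 (mutant), against -0.32 and -0.19 over all genes.

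Detection in single cells was also counted at equal depth in mature neutrophils and erythroid cells. Like CPM, this compares shares of UMIs, so it is no separate check of the levels. After each cell was thinned to 2000 UMIs, Clec4d was detected in 97.8% of 135 WT mature neutrophils (exact binomial 93.6 to 99.5%) and 96.3% of 134 mutant ones (91.5 to 98.8%), and Clec4e in 90.4% and 90.3%. Without thinning the shares were 98.9% and 97.1% for Clec4d and 90.6% for Clec4e in both libraries. Shallower cells were left out, 46 in the WT and 37 in the mutant library. In thinned erythroid cells Clec4e was detected in 1.31% (WT) and 2.90% (mutant), and without thinning in 5.06% and 9.0%, with median depths of 9268 and 9601 UMIs against 2891 and 4706 UMIs in mature neutrophils.

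Clec4d was detected more often in immature neutrophils that held a UMI of Clec4e than in those that did not. Clec4d had a UMI in 56.0% (41.2 to 70.0%) of the 50 thinned WT immature neutrophils with Clec4e and in 21.2% (12.9 to 31.8%) of the 80 without, and in 51.8% against 22.6% in the mutant library. In inflammatory macrophages the same shares were 81.6% and 87.5% in the WT library and 79.8% and 70.3% in the mutant library, with overlapping intervals in both. A thinned mature neutrophil held a UMI of 4.10 members on average in the WT library and 3.82 in the mutant library, against 1.63 and 1.40 in immature neutrophils.

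**Figure D4:**
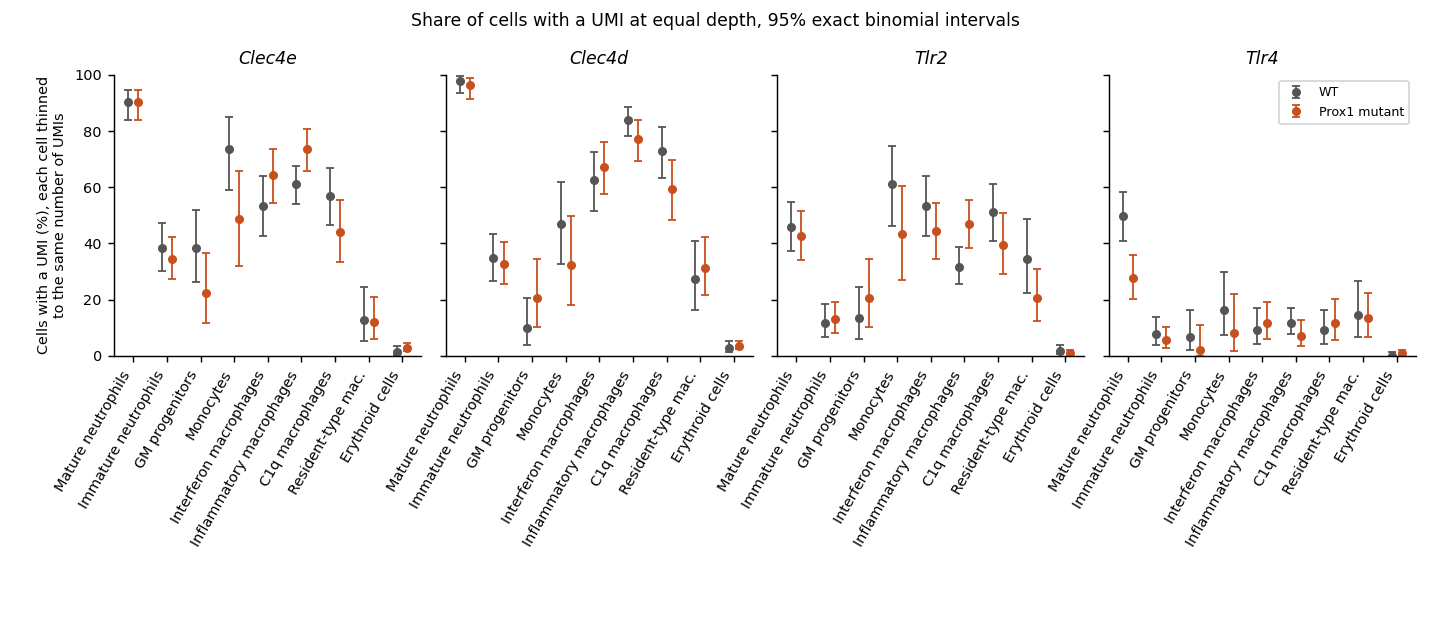
Percent of cells with a UMI of Clec4e, Clec4d, Tlr2 and Tlr4 after thinning each cell to 2000 UMIs, in the 8 myeloid classes and in erythroid cells, with 95% exact binomial intervals, WT in grey and Prox1 mutant in orange. In mature neutrophils Tlr4 is at 49.6% in the WT library and 27.6% in the mutant library, and Clec4e at 90.4% and 90.3%.

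The comparison of the mutant with the WT library asked how the genes that sense the adjuvant differed in animals used as a model of lymphatic deficiency. A member was counted where it had at least 20 UMIs over both libraries in the class and differed by at least 1.5-fold. In mature neutrophils 0 of 9 members were higher in the mutant library (17.4% of all genes) and 2 were lower (17.7%), Tlr4 and Nod2. In immature neutrophils 0 were higher (12.9%) and the same 2 were lower (12.2%). In monocytes 0 were higher (21.3%) and 2 were lower (16.7%), Tlr4 and Cd14. In progenitors 2 were higher (20.3%), Clec4d and Tlr13, and 1 was lower (10.2%), Myd88. Scaled by the median of ratios, these counts were 1 lower in mature neutrophils, 4 lower in monocytes, 1 higher in resident-type macrophages, and 1 higher and 3 lower in progenitors. The 9 mature neutrophil markers summed to 1907 CPM in WT and 6987 CPM in mutant progenitors, the 7 macrophage markers to 672 and 1955 CPM and the 6 erythroid markers to 54.8 and 1596 CPM, and their part in the progenitor values was not tested. With 9 members, counts of 0 to 2 are not far from these percentages and set nothing apart.

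In the macrophage classes the counts ran from 0 to 3, and with 8 or 9 members these set nothing apart either. In interferon-responding macrophages 3 of 9 members were higher in the mutant library (13.5% of all genes), Clec4e, Nod2 and Myd88, and 1 was lower (9.91%), Card9, from 14 and 8 UMIs. In inflammatory macrophages the same 3 were higher (20.4%) and 0 were lower (5.85%), in a class where all genes leaned to higher values. In C1q macrophages 0 were higher (13.6%) and 1 was lower (8.51%), Cd14, and in resident-type macrophages 0 of 8 were higher (13.9%) or lower (10.2%). The median log2 ratio of the members was -0.34 in mature neutrophils, -0.29 in immature neutrophils, -0.30 in monocytes and 0.12 in progenitors, against -0.01, 0.04, 0.07 and 0.12 over all genes. It was 0.54 in interferon-responding, 0.33 in inflammatory, -0.04 in C1q and 0.05 in resident-type macrophages, against 0.04, 0.21, 0.08 and 0.02 over all genes.

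**Figure D5:**
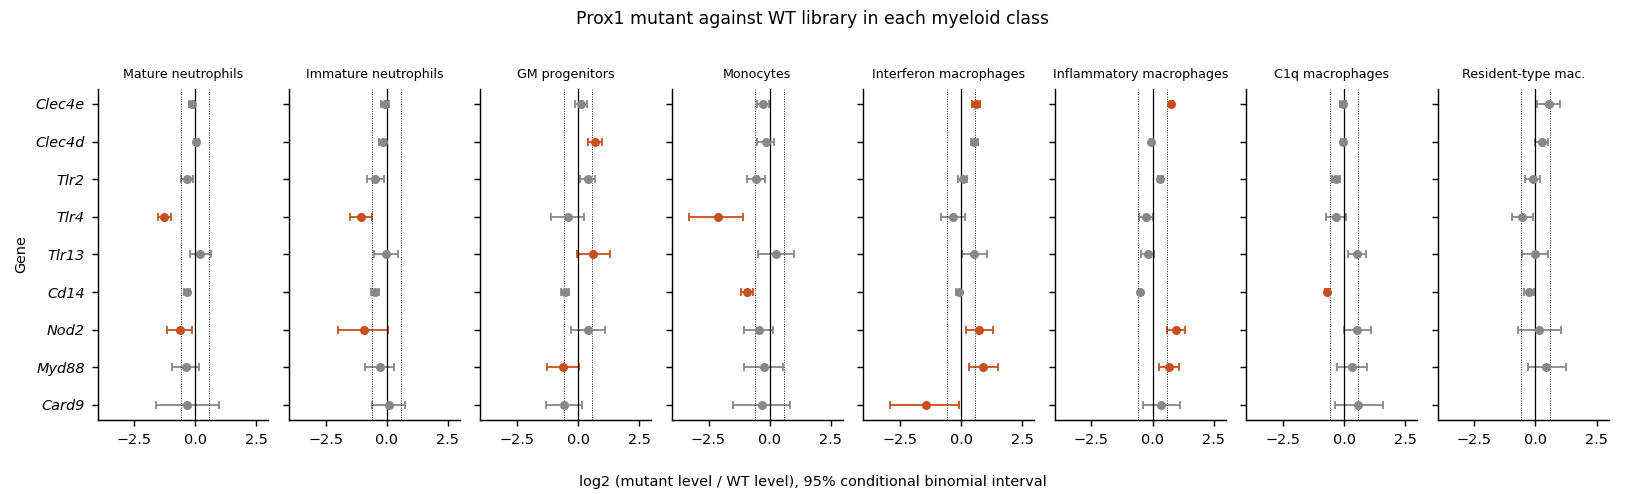
log2 ratio of the mutant to the WT level of each member in each myeloid class, with 95% conditional binomial intervals; orange points are past 1.5-fold, marked by the dotted lines, and a member with under 20 UMIs in a class is left out. The estimate of Tlr4 lies left of 0 in all 8 classes, from -0.27 in inflammatory macrophages to -2.10 in monocytes, though some intervals reach above 0.

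Of the 9 members, Tlr4 had the largest mutant to WT difference in mature neutrophils, immature neutrophils and monocytes. It held 402 CPM in WT and 168 CPM in mutant mature neutrophils, a log2 ratio of -1.26 (-1.54 to -0.98). In immature neutrophils it held 57.0 and 27.7 CPM, a log2 ratio of -1.04 (-1.51 to -0.58). In monocytes it held 100 and 23.3 CPM, a log2 ratio of -2.10 (-3.30 to -1.08) that rests on 57 and 9 UMIs. In the 5 other myeloid classes the estimate was also below 0, between -0.54 in resident-type macrophages and -0.27 in inflammatory macrophages. Of these classes, only resident-type macrophages had an interval wholly below 0 (-0.97 to -0.10). In mesenchymal cells the estimate was -0.08 (-0.28 to 0.12). Outside the myeloid cells Tlr4 was also lower in smooth muscle cells and pericytes, at 27.99 and 10.3 CPM, a log2 ratio of -1.44 (-2.28 to -0.66). It was past 1.5-fold lower too in erythroid cells, at 4.64 and 2.30 CPM from 17 and 19 UMIs. The same held in T and NK cells, at 42.7 and 22.5 CPM from 18 and 15 UMIs. Both of these intervals reached above 0. Tlr4 was higher in B cells, at 5.15 and 22.8 CPM from 4 and 20 UMIs, and in osteoblasts and osteocytes, at 5.62 and 55.9 CPM from 3 and 30 UMIs. At equal depth Tlr4 was detected in 49.6% (40.9 to 58.4%) of WT and 27.6% (20.2 to 36.0%) of mutant mature neutrophils, and without thinning in 58.6% and 46.8%. Thinned monocytes had it in 16.3% and 8.11%, with overlapping intervals. The 9 markers listed for mature neutrophils summed to 79300 CPM in WT and 123600 CPM in mutant cells of that class. Of these, Asprv1 was lower in the mutant library, at 485 and 260 CPM, and the others were higher. The same 9 markers summed to 215400 and 253500 CPM in immature neutrophils, so a higher sum does not mean more mature cells. In mature neutrophils the 6 immature neutrophil markers summed to 1446 and 2591 CPM. The 6 erythroid markers there summed to 2196 and 3916 CPM, and the median depth was 2891 and 4706 UMIs. In immature neutrophils the 6 erythroid markers summed to 251 and 2543 CPM and the 7 macrophage markers to 555 and 231 CPM. In monocytes the 9 neutrophil markers summed to 1152 and 1168 CPM and the 6 erythroid markers to 65.0 and 4123 CPM. The part of these differences in the Tlr4 result was not tested.

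Cd14 was lower in the mutant library in every myeloid class, most in monocytes and C1q macrophages. It held 994 CPM in WT and 526 CPM in mutant monocytes, a log2 ratio of -0.92 (-1.16 to -0.68), and 1513 and 934 CPM in C1q macrophages, a log2 ratio of -0.70 (-0.78 to -0.61). In the other classes the log2 ratio lay between -0.52 in progenitors and -0.10 in interferon-responding macrophages, short of 1.5-fold when scaled by class totals. Cd14 stayed short of it in progenitors under 10 of 14 alternatives and in inflammatory macrophages under 11 of 14. Scaled by class totals, Tlr2 passed 1.5-fold in none of the 8 classes, with log2 ratios from -0.55 in monocytes to 0.39 in progenitors. With median of ratios scaling, 4 members were lower past the fold in monocytes, Tlr2 among them, and 3 in progenitors.

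Clec4e was past 1.5-fold higher in 2 mutant macrophage classes and Clec4d in neither. Of these 2 classes, their ratios lay apart in inflammatory macrophages only. They also lay apart in progenitors, where the log2 ratio was 0.12 (-0.12 to 0.35) for Clec4e and 0.69 (0.40 to 0.98) for Clec4d. In interferon-responding macrophages both were higher with overlapping intervals, on either side of the cutoff. In inflammatory macrophages Clec4e held 586 CPM in the WT and 1001 CPM in the mutant library, a log2 ratio of 0.77 (0.71 to 0.83), and Clec4d held 897 and 862 CPM, a log2 ratio of -0.06 (-0.12 to 0.00). In interferon-responding macrophages Clec4e held 460 and 705 CPM, a log2 ratio of 0.62 (0.46 to 0.77), and Clec4d 561 and 821 CPM, a log2 ratio of 0.55 (0.41 to 0.69). Over all genes with at least 20 UMIs in each library, the median log2 ratio was 0.21 in inflammatory macrophages and 0.15 in monocytes. Relative to that median the Clec4e ratio in inflammatory macrophages was 0.56, short of 1.5-fold, and the Cd14 ratio there was -0.71, past it. With that scaling 1 of 9 members was higher in mutant inflammatory macrophages, Nod2, and 1 was lower, Cd14. The higher Clec4e level also depended on how macrophages were chosen. Over the 4 macrophage classes it was 516 CPM in 453 WT cells and 689 CPM in 415 mutant cells. When cells were picked by C1q genes alone (minimum 3 UMIs), it was 483 CPM in 478 WT and 493 CPM in 965 mutant cells. Many of these mutant cells thus lay outside the 4 classes.

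The inflammatory macrophages were made up of clusters present in unequal numbers. The cluster led by H2-M2, Mmp12 and Atp6v0d2 held 126 WT and 27 mutant cells, and that led by Cxcl3, Slc1a2 and Tnfsf15 held 80 and 114. Clec4e was 465 CPM in WT and 887 CPM in mutant cells of the first cluster, a log2 ratio of 0.93 (0.83 to 1.03), and 927 and 1050 CPM in those of the second, a log2 ratio of 0.18 (0.09 to 0.27). The Clec4e difference was thus past 1.5-fold in only the first cluster, and the shift in cluster sizes moves the class value in the same direction. Cd14 went the other way, with log2 ratios of -0.36 (-0.43 to -0.30) in the first cluster and -0.82 (-0.88 to -0.76) in the second.

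Nod2 was past 1.5-fold lower in mutant neutrophils and past 1.5-fold higher in 2 mutant macrophage classes, where Myd88 was also higher. Nod2 was 95.5 CPM in WT and 61.3 CPM in mutant mature neutrophils, a log2 ratio of -0.64 (-1.16 to -0.12), but 17.0 and 32.9 CPM in inflammatory macrophages, a log2 ratio of 0.95 (0.59 to 1.31), and 35.7 and 59.7 CPM in interferon-responding macrophages, a log2 ratio of 0.74 (0.19 to 1.32). Myd88 was 15.5 and 24.6 CPM in inflammatory macrophages, a log2 ratio of 0.67 (0.27 to 1.07), and 31.0 and 57.9 CPM in interferon-responding macrophages, a log2 ratio of 0.90 (0.32 to 1.52), while in mature neutrophils its ratio of -0.40 (-0.95 to 0.16) stayed short of 1.5-fold. Within the clusters of inflammatory macrophages Nod2 had a log2 ratio of 0.86 (0.15 to 1.54) in that led by H2-M2 and only 0.19 (-0.26 to 0.67) in that led by Cxcl3, and Myd88 passed 1.5-fold in neither, at 0.51 (-0.18 to 1.16) and 0.46 (-0.13 to 1.08). In resident-type macrophages the Nod2 ratio was 0.13 (-0.70 to 1.02). In interferon-responding macrophages the 6 erythroid markers summed to 85.5 CPM in the WT and 4423 CPM in the mutant library, and in inflammatory macrophages to 73.0 and 1101 CPM, and their part in these results was not tested.

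In endothelial cells 2 of 7 members were higher in the mutant library (9.9% of all genes), Clec4e and Tlr2, and 0 were lower (7.9%). Clec4e held 5.04 and 11.4 CPM there against 12.8 and 9.57 CPM in erythroid cells, and Tlr2 6.54 and 12.8 CPM against 5.45 and 3.63 CPM. The highest mutant level among the endothelial clusters lay in that led by Ctla2a, Plvap and Fabp4, with a median of 1444 WT and 1861 mutant UMIs a cell, where Clec4e was 8.46 CPM in the WT and 70.8 CPM in the mutant library and Cd14 16.9 and 154 CPM. Over all endothelial cells the 9 mature neutrophil markers summed to 270 and 664 CPM and the 6 erythroid markers to 960 and 5512 CPM. Their part in the Clec4e and Tlr2 values was not tested.

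The partners of the receptors were taken from lists of the pathway. The outputs are cytokines, chemokines and enzymes induced by these receptors. Of 12 measured, 0 were higher (17.4% of all genes) and 4 lower (17.7%) in mutant mature neutrophils. In immature neutrophils 2 were higher (12.9%) and 8 lower (12.2%), and in monocytes 1 was higher (21.3%) and 7 lower (16.7%). Marker sums of other cell types, given above for these classes, also differed between the libraries, and their part in these counts was not tested. Cxcl2, a neutrophil chemoattractant, was 11924 CPM in WT and 7213 CPM in mutant mature neutrophils, a log2 ratio of -0.73 (-0.77 to -0.68), Il1b was 9521 and 7812 CPM and Acod1, which makes itaconate, 6322 and 5683 CPM. Of the outputs measured in macrophages, 7 of 13 were higher and 0 lower in interferon-responding macrophages, and 7 of 15 were higher and 1 lower in inflammatory macrophages, while in C1q macrophages 1 of 13 was higher and 5 were lower, in resident-type macrophages 3 of 12 and 5, and in progenitors 1 of 12 and 5. The percentages of all genes past 1.5-fold in each class are those given above for the members. These counts of outputs use class totals and were not rescaled, although the median log2 ratio over all genes was 0.21 in inflammatory macrophages.

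Adaptors and kinases carry the signal from the receptors to NF-kB. In mature neutrophils 0 of 14 were higher (17.4% of all genes) and 1 was lower (17.7%), Fcer1g. This signalling chain of Mincle was at 2856 CPM in WT and 1636 CPM in mutant cells, a log2 ratio of -0.80 (-0.90 to -0.71). In inflammatory macrophages 2 of 16 were higher (20.4% of all genes), Irak2 and Malt1, and 0 were lower (5.85%). Malt1, the protease partner of Card9, was at 1257 and 1915 CPM, a log2 ratio of 0.61 (0.56 to 0.65). That ratio was not rescaled by the median log2 ratio of 0.21 over all genes in this class. In progenitors, where 20.3% of all genes were higher and the markers of other cells given above were raised, 7 of 15 were higher, among them Syk, at 151 and 321 CPM, a log2 ratio of 1.09 (0.86 to 1.32).

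Of the feedback inhibitors, Socs3, which restrains cytokine receptor signalling, was lower in mutant monocytes, at 662 and 189 CPM, a log2 ratio of -1.81 (-2.19 to -1.44), and in progenitors, at 168 and 57.9 CPM. Irak3, which restrains Myd88 signalling, was higher in C1q macrophages, at 58.3 and 119 CPM, a log2 ratio of 1.03 (0.72 to 1.36), and in progenitors, at 42.1 and 102 CPM. Nfkbia in mature neutrophils was 3830 and 2973 CPM and Nfkbiz 1054 and 1543 CPM, both short of 1.5-fold.

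Other C-type lectins and scavenger receptors differed in both directions. Clec4n, which encodes the mannan receptor Dectin-2, was 1578 CPM in WT and 779 CPM in mutant inflammatory macrophages, a log2 ratio of -1.02 (-1.07 to -0.96), and 99.2 and 26.5 CPM in immature neutrophils, a log2 ratio of -1.91 (-2.34 to -1.49). In immature neutrophils the 7 macrophage markers summed to 555 and 231 CPM, and their part in the Clec4n value was not tested. Marco, a scavenger receptor, was 117 and 6.15 CPM in C1q macrophages, a log2 ratio of -4.24 (-5.17 to -3.44), but 3.76 and 39.2 CPM in interferon-responding macrophages, from 4 and 65 UMIs. Mrc1, the mannose receptor, was 1609 and 739 CPM in resident-type macrophages, a log2 ratio of -1.12 (-1.24 to -1.0). Mrc1 is also a marker that named this class, and of its other markers Folr2 (248 and 118 CPM), Pf4 (371 and 131 CPM) and Cd163 (73.6 and 15.2 CPM) were lower too, while Ccl8 was 1556 and 1462 CPM and the 9 mature neutrophil markers summed to 488 and 2353 CPM. The part of the make-up of the class in the Mrc1 value was not tested. Of the co-receptors, Cd36 was 48.9 and 172 CPM in interferon-responding macrophages, a log2 ratio of 1.81 (1.38 to 2.27), and of the other Toll-like receptors Tlr7 was 119 and 80.2 CPM in resident-type macrophages, short of 1.5-fold, and past it in mature neutrophils, at 7.24 and 21.4 CPM from 5 and 22 UMIs, and in progenitors, at 8.68 and 24.0 CPM.

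The genes most like each member were found by the Pearson correlation of log2(CPM + 5) over 38 profiles, the 19 classes of both libraries, among 9076 genes. The profiles share 2 libraries, so r is a description. Clec4e was most like Rab11fip1 (r = 0.965), Il1b (0.963) and Ccr1 (0.960), and Clec4d most like Clec4e itself (0.956), Cxcl2 (0.95) and Acod1 (0.95). Cd14 was most like Fcgr3 (0.963) and Tlr2 most like Cd14 (0.958). Tlr13 was most like Lilr4b (0.971) and Lilrb4a (0.969), receptors whose near-identical sequences may share reads. Nod2 was most like Csf2rb (0.895) and Irak2 (0.878), Myd88 most like Csrnp1 (0.877) and Nfkbiz (0.864), and Card9 most like AI839979 (0.931). Tlr4 had Por as its nearest gene at 0.780. Against the other members its correlations lay between 0.429 (Card9) and 0.661 (Clec4d), and those of Myd88 between 0.495 (Clec4d) and 0.658 (Tlr4).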

How the data were processed

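The 2 TMJ libraries (10x Genomics 3' chemistry) were profiled. The deposited UMI count matrices were made by the authors with Cell Ranger 7.0.1 on GRCm38 (mm10) and hold raw counts per gene and barcode, with barcodes filtered by that program. The kit version given by the labels differs from that in the study's methods. Following those methods, barcodes with 500 genes or more and a mitochondrial share below 10% were retained, normalised by SCTransform, integrated by anchors (3000 features), reduced to 200 principal components and clustered at resolution 1.5 in Seurat 5.3.0, which gave 43 clusters. Clusters of the monocyte lineage were clustered again in Scanpy 1.11.5 (resolution 0.8). Clusters were named where at least 3 markers of a list were raised, by rules set after the clusters were seen. Scrublet called 0 cells by its automatic threshold and so did not work here, and no doublets were removed.

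UMI counts were summed per class and library and divided by the class total. Levels have exact Poisson intervals, ratios conditional binomial intervals and shares Clopper-Pearson intervals, all at 95%. The calculation was run on simulated Poisson counts, the error that the intervals assume, so this checks the arithmetic only. Those counts held no spread between cells or animals beyond counting error. Kept UMIs totalled 48366846 (WT) and 54330221 (mutant). Alternatives changed the filters, features, integration, resolution, components, doublets, deepest cells, weights, scaling, fold and UMI minimum. Genes outside the list were named by rank: up to 3 of highest level and up to 2 of highest and lowest ratio per pathway list, and up to 3 of nearest profile per member. The members, marker and pathway lists were chosen with earlier results of these data known. Promoter windows came from RefSeq (GRCm38.p6) and gene positions from GENCODE M21.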

Additional observations from a re-analysis of the deposited data

Results flagged for a closer look

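Nod2 went in opposite directions in neutrophils and in 2 macrophage classes, and the difference was not tested. Its log2 ratio of the mutant to the WT level was -0.95 in immature and -0.64 in mature neutrophils, against 0.95 in inflammatory and 0.74 in interferon-responding macrophages. The interval in immature neutrophils reached 0.05, from 22 and 16 UMIs. Within inflammatory macrophages the ratio was 0.86 in the cluster of 126 WT and 27 mutant cells and 0.19 (-0.26 to 0.67) in that of 80 and 114, and in resident-type macrophages it was 0.13 (-0.70 to 1.02). With 1 library per group, only counting error stands behind these values.

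Cells of no named class, 503 in the WT and 2415 in the mutant library, enter none of the comparisons between classes, yet held every member above its level in erythroid cells. Clec4e was 372 and 366 CPM there (WT and mutant), Clec4d 445 and 388 CPM, and Cd14 798 and 475 CPM. Tlr2 was 167 and 152 CPM, Tlr4 48.6 and 36 CPM, and Tlr13 32.8 and 34 CPM. Nod2 was 24 and 30.5 CPM, Myd88 25.2 and 29.5 CPM, and Card9 9.38 and 7.24 CPM.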

How the results depend on the processing

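Over the 8 myeloid classes, 8 pairs of member and class were higher and 9 lower in the mutant library by 1.5-fold. At 2-fold these were 0 and 4, as the higher fold must give fewer. Under the other 13 alternatives the counts lay between 6 and 9 for higher pairs and between 7 and 13 for lower ones. Tlr4 was lower past the fold in mature neutrophils, immature neutrophils and monocytes under all 14 alternatives, with log2 ratios from -1.40 to -0.83, -1.68 to -0.91 and -2.44 to -1.82. The 2-fold cutoff is among these alternatives, and a difference smaller than 2-fold must lose its call there whatever the processing. Cd14 was lower past the fold in monocytes under 13 of 14, and in C1q macrophages under only 4 of the 11 that could be made. Clec4e was higher past the fold in inflammatory macrophages under 10 of 14 alternatives and in interferon-responding macrophages under 5 of 14, always with a positive log2 ratio. Nod2 kept its call in 13 of 14 in inflammatory macrophages, in 12 of 14 in interferon-responding macrophages and in 9 of 14 in mature neutrophils. Tlr13 in progenitors reversed to -0.12 with the cells of highest doublet score left out, and the cause was not tested. The class at the top was the same for 8 or 9 of 9 members in the WT library and for 7 to 9 in the mutant library. Median of ratios scaling moved the split of all genes past 1.5-fold in inflammatory macrophages from 20.4% higher and 5.85% lower to 11.4% and 11.3%, in monocytes from 21.3% and 16.7% to 15.8% and 22.6%, and in progenitors from 20.3% and 10.2% to 16.4% and 14.2%. Choosing macrophages by a minimum of 3 UMIs from the C1q genes (C1qa, C1qb, C1qc) gave 478 WT and 965 mutant cells. Their Clec4e level was 483 and 493 CPM, against 516 and 689 CPM in the 453 and 415 cells of the 4 macrophage classes. C1q macrophages were not found at the stricter filter, at resolution 0.5 or at reclustering resolution 0.4. The reclustering resolutions of 0.4 and 1.2 and the split of the inflammatory macrophages into their clusters were chosen after seeing the data. No paired analysis was possible because each group holds 1 library, and for the same reason none could be left out. Counts limit Card9, with 6 to 49 UMIs in the myeloid classes, most.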
